A study of Mus musculus with 8 samples.

Results

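The genes of DNA replication and nucleotide synthesis were examined in the mouse left ventricle after infusion of angiotensin II (ANG II), a peptide hormone that constricts vessels and raises blood pressure. The set held 46 genes, chosen by symbol for a known role in DNA replication or nucleotide supply, out of 55679 genes in the deposited table. They comprised 9 licensing genes, 12 helicase genes, 21 polymerase and fork genes and 4 nucleotide supply genes. Earlier results of these data were known when the set was chosen. Gene expression was measured by RNA-seq in 8 libraries of left ventricle from wild-type mice, which the study's methods give as male C57BL/6J. In the ANG II group, 4 mice received ANG II at 1500 ng/kg/min for 7 days from an osmotic pump under the skin, and in the control group 4 mice received saline for 7 days from the same kind of pump. Both groups were unmodified animals, so ANG II was the labelled difference between them. The whole ventricle wall was sequenced, so each value is a sum over its myocytes, fibroblasts, vessel cells, immune cells and residual blood cells.

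A cell that is about to divide copies its DNA in S phase. Before S phase, the origin recognition complex with Cdc6 and Cdt1 loads rings of Mcm2, Mcm3, Mcm4, Mcm5, Mcm6 and Mcm7 onto origins, a step called licensing, and geminin (Gmnn) restrains Cdt1 afterwards. Cdc45 and the GINS proteins then turn each ring into an active helicase, the DNA polymerases and their clamp, clamp loader and ligase copy the strands, and ribonucleotide reductase, thymidylate synthase and thymidine kinase supply deoxynucleotides. Most adult cardiac myocytes have left the cell cycle, while fibroblasts, endothelial cells and leukocytes in the heart can divide.

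After 7 days of ANG II, 21 of the 45 replication genes that could be tested were higher and 0 were lower. Transcripts of Top2a, Rrm2, Tyms, Cdt1, Mcm5 and Lig1 rose by more than 1 on the log2 scale. All 6 subunits of the Mcm ring and all 4 nucleotide supply genes were called higher on the deposited scale, and 4 of 6 and 2 of 4 were after median-of-ratios scaling. The 6 subunits of the origin recognition complex, geminin and the 3 subunits of the single-strand binding protein RPA did not pass the test. To be called, a gene needed an adjusted p under 0.05 in limma (Benjamini-Hochberg over 19364 genes) and a log2 fold change on the log2(FPKM + 1) scale above 0.5 in size. FPKM is the number of sequenced fragments scaled to the length of the transcript and to all fragments of the library. Over all 19364 genes tested, 14% were called higher and 1.41% were called lower. The labels give every library as its own left ventricle and say nothing further of independence, so p-values here measure the spread between these libraries.

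The stretch of DNA around the start site of the gene with the largest called rise in each group is shown here, because the cell-cycle factors known to act on replication genes bind near the start. Each window runs 5' to 3' on the gene's own strand, from 250 bases before the RefSeq start site to 50 bases after it, on build GRCm38.p6. The Cdt1 window lies at chr8:122567765-122568064 on the plus strand, the Mcm5 window at chr8:75109259-75109558 on the plus strand, the Top2a window at chr11:99024140-99024439 on the minus strand and the Rrm2 window at chr12:24708004-24708303 on the plus strand. Capitals mark E2F words and CCAAT boxes on either strand, and the words searched are spelled out with the promoter counts.
Cdt1: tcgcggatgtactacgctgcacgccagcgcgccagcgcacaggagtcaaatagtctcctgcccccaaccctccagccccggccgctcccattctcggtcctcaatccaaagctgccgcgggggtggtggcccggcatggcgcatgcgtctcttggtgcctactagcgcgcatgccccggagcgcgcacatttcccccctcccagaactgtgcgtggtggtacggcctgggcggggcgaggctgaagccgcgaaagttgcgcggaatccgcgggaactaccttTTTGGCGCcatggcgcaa
Mcm5: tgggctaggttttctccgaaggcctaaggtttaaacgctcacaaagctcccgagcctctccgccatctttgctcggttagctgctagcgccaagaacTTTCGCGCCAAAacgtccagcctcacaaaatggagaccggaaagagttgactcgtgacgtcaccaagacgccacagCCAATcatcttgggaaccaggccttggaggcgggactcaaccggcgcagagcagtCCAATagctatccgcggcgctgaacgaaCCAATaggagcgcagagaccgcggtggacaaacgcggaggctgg
Top2a: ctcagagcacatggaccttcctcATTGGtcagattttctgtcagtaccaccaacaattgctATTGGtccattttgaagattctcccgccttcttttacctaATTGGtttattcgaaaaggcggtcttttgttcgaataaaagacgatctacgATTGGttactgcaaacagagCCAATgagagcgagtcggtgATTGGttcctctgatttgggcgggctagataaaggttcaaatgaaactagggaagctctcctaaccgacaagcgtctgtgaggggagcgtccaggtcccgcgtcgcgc
Rrm2: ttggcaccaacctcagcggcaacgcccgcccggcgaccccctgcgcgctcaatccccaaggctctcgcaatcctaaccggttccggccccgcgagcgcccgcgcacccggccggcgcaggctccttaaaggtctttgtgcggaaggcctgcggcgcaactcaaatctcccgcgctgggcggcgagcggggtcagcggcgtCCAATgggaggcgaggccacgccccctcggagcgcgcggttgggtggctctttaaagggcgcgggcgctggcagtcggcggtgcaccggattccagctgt
The Cdt1 window held 1 E2F word, 33 bases after the start. The Mcm5 window held 2 overlapping E2F words in 1 block, 153 and 149 bases before the start, and 3 CCAAT boxes. Neither the Top2a nor the Rrm2 window held an E2F word. The Top2a window held 6 CCAAT boxes and 2 copies of the CHR word, which are in lower case here, and the Rrm2 window held 1 CCAAT box.

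The libraries were of like depth, with 14455654 to 16564828 fragments each as read from the steps of the FPKM values. Genes of ventricular myocytes were abundant in all 8 libraries, with a summed level over 10 marker genes of 48957 to 49833 FPKM in control and 36989 to 39925 FPKM in ANG II. Mitochondrially encoded genes took 26.3 to 27.0% of fragments in control and 19.2 to 21.8% in ANG II. FPKM values share a fixed total, and the median log2 fold change over all genes tested was 0.15. After median-of-ratios scaling, which sets that median near 0 (0.0042), 1671 genes were called higher and 803 lower, against 2708 and 273 on the deposited scale.

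The 45 tested replication genes had a median log2 fold change of 0.48, which is 0.34 above the median of all genes, and a range from -0.13 to 2.05. With the adjusted p alone and no fold change threshold, 28 replication genes passed and every one of them was higher, against 28.4% of all genes tested that passed as higher. In 27 of the 45, the lowest ANG II library lay above the highest control library, against 28.7% of all genes tested. No replication gene had its ANG II libraries all below its control libraries, an order held by 5.06% of all genes. For a single gene, groups that do not overlap give the smallest p that an exact two-sided permutation test over the 70 allocations can reach, 0.0286.

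**Figure D1:**
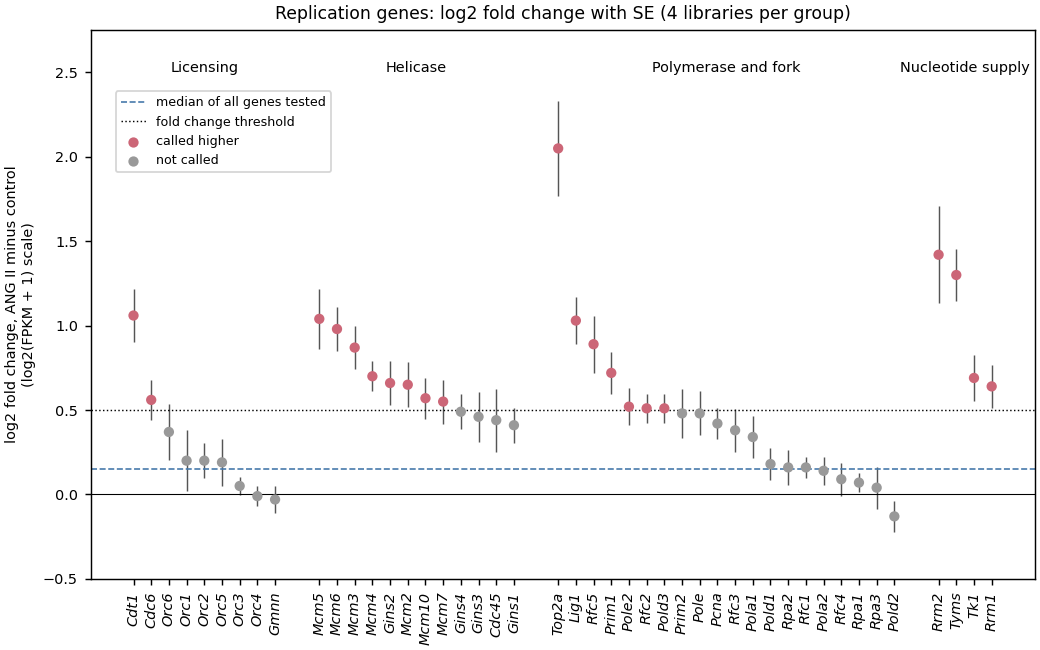
Log2 fold change (ANG II minus control, log2(FPKM + 1) scale) of the 45 tested replication genes, ordered by size within the 4 groups, with bars of 1 SE and 4 libraries per group; red points are the 21 genes called higher. The points run from -0.13 (Pold2) to 2.05 (Top2a), and the dashed line at 0.15 is the median of all genes tested.

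Among the 9 licensing genes, Cdt1 and Cdc6 rose and the other 7 were not called. Cdt1, which brings the Mcm ring to origins, was at 1.01, 0.751, 1.1 and 0.335 FPKM in control libraries 1 to 4 and at 2.61, 3.26, 2.61 and 2.34 FPKM in ANG II libraries 1 to 4. The groups did not overlap, and control 4 was the lowest of the 8. The mean went from 0.801 ± 0.345 FPKM to 2.70 ± 0.391 FPKM (SD, n = 4 each), a ratio of 3.38, and the log2 fold change was 1.06 (limma adjusted p = 0.000741, SE 0.157). Cdc6, the ATPase that works with the origin recognition complex in loading, was at 0.284, 0.195, 0.267 and 0.206 FPKM in control and at 0.937, 1.05, 0.898 and 0.474 FPKM in ANG II. All 4 ANG II libraries lay above the controls, with ANG II 4 the closest to them. Its log2 fold change was 0.56 (limma adjusted p = 0.00488, SE 0.117), from 9 to 14 fragments per control library and 24 to 53 per ANG II library. Cdc6 was not called after median-of-ratios (0.49) or quantile scaling (0.42), where it fell under the fold change threshold and kept an adjusted p in limma of 0.0112 and 0.0245.

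Transcripts of the origin recognition complex, which marks where replication may begin, gave 0 calls in 6, against 14% of all genes called higher. Orc6 alone was called when control 2 was left out (log2 fold change 0.51, limma adjusted p = 0.0243). The median log2 fold change of its subunits was 0.19, next to 0.15 for all genes. Orc4 had the smallest change of the licensing genes, with 31.1, 27.7, 28.2 and 28.2 FPKM in control and 30.0, 27.7, 30.0 and 26.9 FPKM in ANG II. Those ranges overlapped, and the log2 fold change was -0.01 (limma adjusted p = 0.942, SE 0.0609). After median-of-ratios scaling it was -0.23 (limma adjusted p = 0.0171), under the fold change threshold in size. Geminin, the Cdt1 inhibitor encoded by Gmnn, was at 34.2, 29.3, 37.4 and 36.9 FPKM in control and at 32.6, 33.3, 36.7 and 32.2 FPKM in ANG II. Its groups overlapped too, and its log2 fold change was -0.03 (limma adjusted p = 0.831, SE 0.0814). Orc3 (0.05), Orc5 (0.19), Orc2 (0.20), Orc1 (0.20) and Orc6 (0.37) lay between these values and the called genes in log2 fold change. Opposite-strand exons of Nif3l1 cover 29.8% of the Orc2 exon bases. Orc1, the lowest of the complex, rested on 3 to 18 fragments per library, and ANG II 4 held the lowest value (0.189 FPKM). Without ANG II 4 the log2 fold change of Orc1 was 0.39 in place of 0.20 and passed the adjusted p alone (limma, 0.037). Summed over the 6 subunits, the level was 73.7 to 80.2 FPKM in control and 78.3 to 85.9 FPKM in ANG II.

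Of the 12 helicase genes, 8 were called higher and 11 passed the adjusted p alone, all of them higher. Their log2 fold changes ran from 0.41 to 1.04 with a median of 0.61. Mcm5, a subunit of the ring, was at 1.7, 2.67, 1.75 and 1.57 FPKM in control and at 5.38, 5.65, 5.92 and 3.26 FPKM in ANG II. The groups did not overlap, and the lowest ANG II library was again ANG II 4. Mean Mcm5 rose from 1.92 ± 0.506 to 5.05 ± 1.22 FPKM (SD, n = 4 per group), and its log2 fold change was 1.04 (limma adjusted p = 0.00161, SE 0.177). Mcm6 was at 5.22, 5.3, 4.73 and 5.56 FPKM in control and at 12.9, 10.8, 13.4 and 8.36 FPKM in ANG II. Every ANG II library exceeded every control, and the log2 fold change was 0.98 (limma adjusted p = 0.000442, SE 0.132). Mcm3 was at 4.3, 4.22, 4.21 and 3.69 FPKM in control and at 9.46, 9.49, 8.45 and 6.2 FPKM in ANG II. The controls were close together and lay below all 4 ANG II libraries, with a ratio of means of 2.05, and its log2 fold change was 0.87 (limma adjusted p = 0.000668, SE 0.126).

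Mcm4 was at 5.73, 5.5, 5.39 and 4.95 FPKM in control and at 10.3, 10.2, 8.58 and 8.56 FPKM in ANG II, a log2 fold change of 0.70 (limma adjusted p = 0.000304, SE 0.0887). It had the tightest groups of the ring relative to its change, and the groups did not overlap. Mcm2 (log2 fold change 0.65, limma adjusted p = 0.00428) and Mcm7 (0.55, limma adjusted p = 0.00926) complete the ring. Mcm7 was the only ring subunit whose groups overlapped, since control 2 at 11.3 FPKM lay just above ANG II 4 at 11.2 FPKM. The call of Mcm7 was lost without control 3 and without ANG II 3, where the replication genes called numbered 19 and 21. Of the words of 50 bases in Mcm7 transcripts, 23.3% also occur in other genes, most in Gm5487, so part of its count may be shared. Summed over the ring, the level was 30.7, 35.2, 27.6 and 28.5 FPKM in control and 60.7, 58.9, 60 and 44.2 FPKM in ANG II. Mcm7 was the most abundant subunit and Mcm5 the least in each of the 8 libraries. The ratio of Mcm7 to Mcm5 averaged 4.63 ± 0.614 over the controls and 2.70 ± 0.495 over the ANG II libraries (SD, n = 4 per group), with control libraries at 4.0 to 5.26 and ANG II libraries at 2.39 to 3.44.

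Gins2, a subunit of the GINS complex that completes the helicase, was at 0.291, 0.0641, 0.226 and 0.245 FPKM in control and at 1.08, 0.88, 1.21 and 0.527 FPKM in ANG II. The groups did not overlap, and the ratio of means was 4.47. On the log2(FPKM + 1) scale the change was 0.66 (limma adjusted p = 0.00369, SE 0.131), from 2 to 9 fragments per control library and 18 to 39 per ANG II library. Opposite-strand exons of Gse1 cover 67.3% of the Gins2 exon bases, and Gse1 itself was at 4.93 to 5.68 FPKM in control and 6.01 to 7.11 FPKM in ANG II. The use of strand in counting was not given in the sources used here, so reads of Gins2 and Gse1 cannot be told apart. Mcm10, which activates the loaded helicase, was called, and its log2 fold change was 0.57 (limma adjusted p = 0.00543).

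The 4 helicase genes that were not called sat just under the fold change threshold. Gins1 was at 2.07, 2.25, 1.71 and 2.25 FPKM in control and at 2.96, 3.0, 3.46 and 2.9 FPKM in ANG II. Its groups did not overlap and its adjusted p passed, but the log2 fold change was 0.41 (limma adjusted p = 0.0123, SE 0.103). Cdc45, the partner of the ring in the active helicase, was at 1.78, 1.81, 1.21 and 0.674 FPKM in control and at 2.04, 2.06, 2.94 and 1.69 FPKM in ANG II. ANG II 4 lay within the control range, and the change of 0.44 (SE 0.187) did not pass (limma adjusted p = 0.0976). Gins3 and Gins4 had log2 fold changes of 0.46 and 0.49 and passed the adjusted p alone. In voom, which models the recovered fragments and leaves low genes less compressed, Gins3 and Gins4 were called as well and helicase calls rose to 10 of 12.

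**Figure D2:**
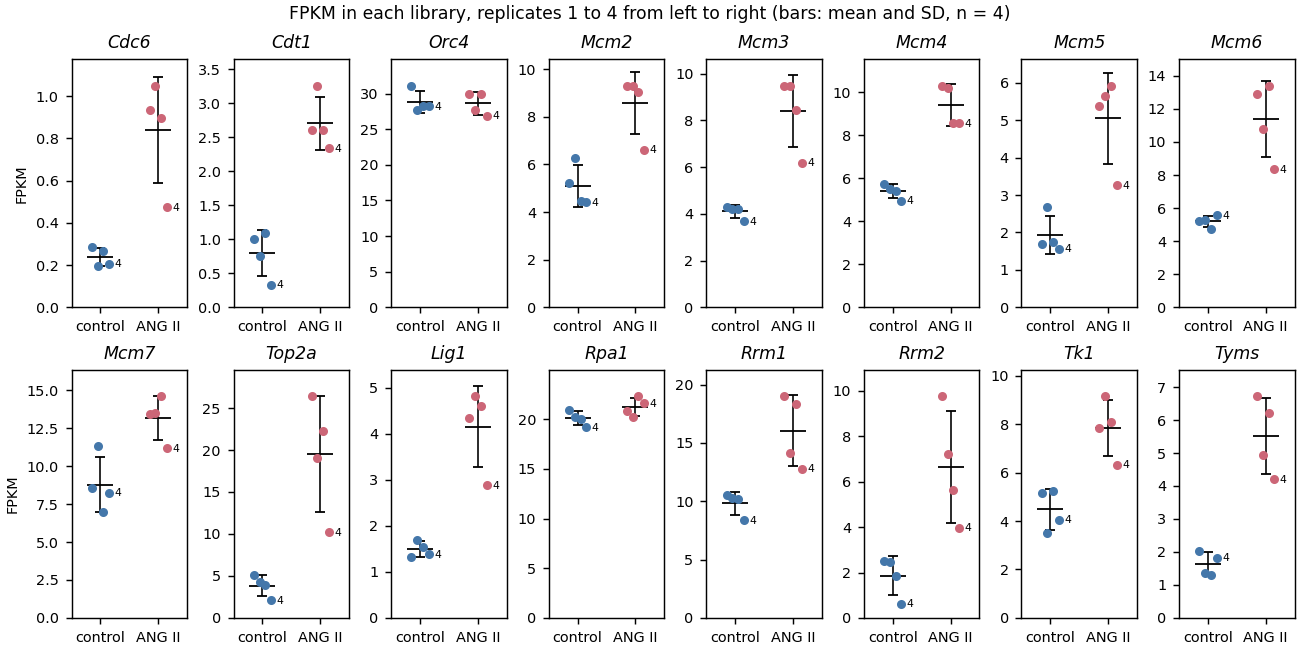
FPKM of 16 replication genes in each of the 8 libraries, control in blue and ANG II in red, with bars for the mean and SD (n = 4) and library 4 of each group marked. ANG II 4 is the lowest ANG II library in most panels, while Orc4 and Rpa1 have overlapping groups.

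At the polymerases and the fork, 7 of the 20 tested genes rose, with a median log2 fold change of 0.40. Top2a, the topoisomerase that untangles duplicated DNA, was at 5.1, 4.24, 3.88 and 2.12 FPKM in control and at 26.4, 19.1, 22.3 and 10.2 FPKM in ANG II. The lowest ANG II library still held 10.2 FPKM against a control maximum of 5.1 FPKM. The mean went from 3.83 ± 1.25 FPKM to 19.5 ± 6.88 FPKM (SD, n = 4 each), a ratio of 5.09, and the log2 fold change of 2.05 (limma adjusted p = 0.000475, SE 0.281) led the whole set. Lig1, the ligase that seals lagging-strand fragments, was at 1.33, 1.7, 1.55 and 1.38 FPKM in control and at 4.33, 4.81, 4.59 and 2.88 FPKM in ANG II. Its groups were well apart, and its log2 fold change was 1.03 (limma adjusted p = 0.000443, SE 0.14).

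Rfc5, a subunit of the clamp loader, was at 1.44, 2.01, 2.52 and 1.49 FPKM in control and at 5.11, 4.08, 5.04 and 3.02 FPKM in ANG II. The groups did not overlap, and the log2 fold change was 0.89 (limma adjusted p = 0.00306, SE 0.17). Prim1, the catalytic subunit of primase, was at 1.41, 1.4, 0.887 and 1.04 FPKM in control and at 2.7, 2.56, 3.0 and 2.16 FPKM in ANG II. All ANG II libraries were higher, and its log2 fold change was 0.72 (limma adjusted p = 0.00169, SE 0.124). Pole2, a subunit of the leading-strand polymerase, was at 0.755, 0.481, 0.612 and 0.51 FPKM in control and at 1.44, 1.03, 1.44 and 1.22 FPKM in ANG II. Its log2 fold change of 0.52 (limma adjusted p = 0.00479, SE 0.108) lay close to the threshold, as did those of Pold3 (0.51) and Rfc2 (0.51). Opposite-strand exons of Lat2 cover 15.1% of the Rfc2 exon bases and those of Wsb2 cover 10.7% of Rfc5. These 3 calls were lost together when ANG II 1 was left out, which brought the fork genes called from 7 to 4. They were also lost 2 at a time without other libraries: Pold3 and Pole2 without control 2, Pold3 and Rfc2 without control 3, and Pole2 and Rfc2 without control 4. Pole2 was lost without ANG II 3 as well.

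By complex, the clamp loader gave 2 calls in 5 subunits, polymerase alpha and primase 1 in 4, polymerase delta 1 in 3 and polymerase epsilon 1 in 2. RPA, which coats single-stranded DNA, gave 0 calls in 3. Over all genes tested 14% were called higher, so counts of 0 or 1 in so few subunits say little by themselves. Rpa3 was at 11.8, 9.83, 8.31 and 8.99 FPKM in control and at 8.98, 12.0, 8.51 and 10.6 FPKM in ANG II. Rpa1 was at 20.9, 20.2, 20.0 and 19.2 FPKM in control and at 20.8, 20.2, 22.3 and 21.6 FPKM in ANG II. In both, the groups overlapped, and the log2 fold changes were 0.04 (limma adjusted p = 0.853, SE 0.125) and 0.07 (limma adjusted p = 0.339, SE 0.0553). Whether the complexes differ from each other in their change was not tested.

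The remaining fork genes were not called. By group mean, the sliding clamp Pcna was the most abundant replication gene in both groups. It was at 32.9 to 41.2 FPKM in control and 44.2 to 52.4 FPKM in ANG II. In control 3 and control 4, Gmnn was higher (37.4 and 36.9 FPKM) than Pcna (32.9 and 33.4 FPKM). The Pcna groups did not overlap and its adjusted p was 0.00559 in limma, but its log2 fold change of 0.42 was under the threshold. Of its words of 50 bases, 19.1% also occur in other genes, most in Pcna-ps2. Prim2 (0.48), Pole (0.48) and Rfc3 (0.38) likewise passed the adjusted p alone. Pola1 (0.34), Pold1 (0.18), Rfc1 (0.16), Rpa2 (0.16), Pola2 (0.14), Rfc4 (0.09) and Pold2 (-0.13) did not. Fen1, the flap endonuclease of lagging-strand synthesis, was listed at 0 to 0.147 FPKM, or 0 to 5 fragments per library, and fell below the 0.1 FPKM filter. Opposite-strand exons, of the antisense gene Gm10143 and of Tmem258, cover 84.2% of the Fen1 exon bases. Gm10143 was itself at 0 to 0.0405 FPKM, and Tmem258 was at 16.7 to 22.1 FPKM in control and 20.9 to 31.4 FPKM in ANG II. How reads in this overlap were counted was not given in the sources used here, so the Fen1 value is uncertain and no fold is given.

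All 4 nucleotide supply genes rose, with a median log2 fold change of 1.00. Rrm2, the small subunit of ribonucleotide reductase whose protein is made in S phase, was at 2.5, 2.47, 1.86 and 0.633 FPKM in control and at 9.76, 7.23, 5.65 and 3.97 FPKM in ANG II. The groups did not overlap, although control 4 and ANG II 4 were each the lowest of their group. Mean Rrm2 went from 1.87 ± 0.873 FPKM to 6.65 ± 2.46 FPKM (SD, n = 4 per group), and its log2 fold change was 1.42 (limma adjusted p = 0.00403, SE 0.286). Tyms, the thymidylate synthase, was at 2.03, 1.37, 1.29 and 1.83 FPKM in control and at 6.72, 4.93, 6.21 and 4.21 FPKM in ANG II. The ratio of its means was 3.39, and its log2 fold change of 1.30 (SE 0.152) had the lowest adjusted p of the 45 genes (limma, 0.000196).

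Tk1, the thymidine kinase of dividing cells, was at 5.17, 3.5, 5.23 and 4.05 FPKM in control and at 7.82, 9.15, 8.08 and 6.33 FPKM in ANG II. Its groups did not overlap, and its log2 fold change was 0.69 (limma adjusted p = 0.00367, SE 0.137). Rrm1, the large subunit of ribonucleotide reductase, was at 10.5, 10.3, 10.2 and 8.38 FPKM in control and at 19.0, 14.1, 18.3 and 12.8 FPKM in ANG II. Every ANG II library exceeded every control, and its log2 fold change was 0.64 (limma adjusted p = 0.00417, SE 0.129). The ratio of Rrm1 to Rrm2 was 4.18 to 13.2 in control libraries and 1.95 to 3.24 in ANG II libraries. Tk1 and Rrm1 were not called after median-of-ratios or quantile scaling, where their size fell under the threshold, while Rrm2 and Tyms were. Tk1 also missed the adjusted p after quantile normalization (limma, 0.0672).

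**Figure D3:**
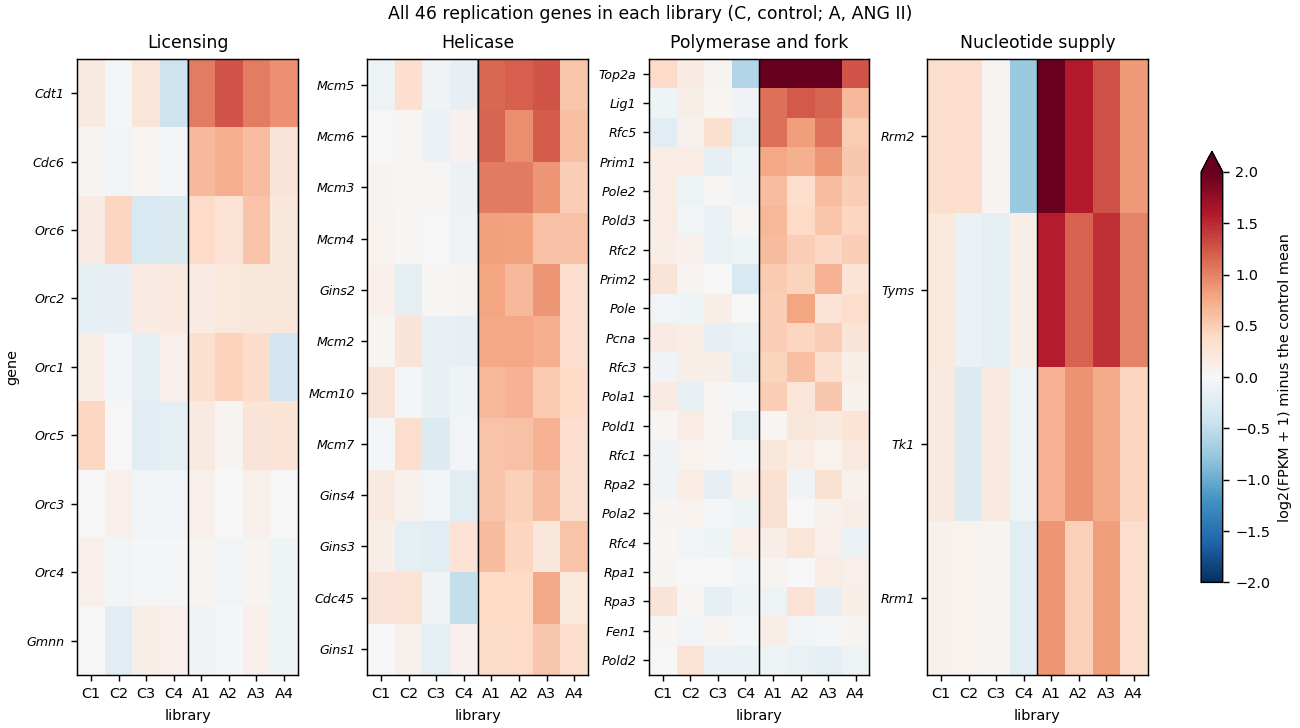
All 46 replication genes (rows, by group and ordered by log2 fold change) in the 8 libraries (columns; C, control; A, ANG II), coloured by log2(FPKM + 1) minus the control mean of the gene. Red fills the ANG II columns of the helicase and nucleotide supply panels and is paler in A4, while most licensing and lower fork genes are near white.

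Other genes of the pathway were listed by function. Among 37 tested genes of fork protection, origin firing and chromatin assembly, 12 rose and 0 fell. They were led by Uhrf1, which keeps DNA methylation at the fork (log2 fold change 1.38, limma adjusted p = 0.00023), Clspn, a checkpoint adaptor at the fork (1.30, limma adjusted p = 0.00114), and Dbf4, the activator of the Cdc7 kinase (0.87, limma adjusted p = 0.00189). Among 28 further nucleotide genes, of purine and pyrimidine synthesis, folate metabolism and salvage, 2 rose and 0 fell. These were Mthfd2, a mitochondrial folate enzyme (1.59, limma adjusted p = 2.1e-05), and Dck, the deoxycytidine kinase (0.66, limma adjusted p = 0.00256), which was not called after median-of-ratios (0.47) or quantile scaling (0.34). The 2 calls in 28 stand against 14% called higher over all genes tested. Genes of deoxynucleotide supply in this list that were not called included Dctd (0.49), Tk2 (0.44), Dtymk (0.19), Dctpp1 (-0.06), Rrm2b (-0.08) and Dut (-0.28). The median log2 fold change of the 28 was 0.11, below the 0.15 of all genes.

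E2F factors, the retinoblastoma family and the MuvB complex with its partners time the transcription of cell-cycle genes. Of 18 genes listed for these factors, 8 rose and 0 fell. Foxm1, a factor of the later cell cycle, went from 1.06 to 5.35 FPKM (log2 fold change 1.61, limma adjusted p = 0.00011). Mybl2, a MuvB partner, went from 0.472 to 1.94 FPKM (1.00, limma adjusted p = 0.000382), and E2f2 from 0.182 to 1.24 FPKM (0.91, limma adjusted p = 0.000565). Of 28 genes listed for mitosis, some of which (Ccna2 among them) also act in S phase, 26 rose and 0 fell, with a median log2 fold change of 1.38. Cenpf, a kinetochore protein, was not called on the deposited scale (-0.45, limma adjusted p = 0.13) but was called lower after median-of-ratios (-0.65, limma adjusted p = 0.0373) and quantile scaling (-0.75, limma adjusted p = 0.0187). The mitosis genes with the largest change were Ccna2 (2.00), Cdk1 (1.94) and Mki67 (1.88). Ccna2, Ccnb1, Bub1b, Birc5 and Nuf2 in this list were singled out by the study itself, so the list is not independent evidence of its direction. Whether mitosis and replication genes differ in their change was not tested.

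Level and scale bear on these counts. Of the 11 replication genes with a mean under 2 FPKM, 6 were called higher, against 8.06% of all genes at that level. At 2 to under 10 FPKM, 10 of 21 were called, against 23.1%, and at 10 FPKM and over, 5 of 13, against 14.7%. The log2(FPKM + 1) scale shortens the change of low genes. On the scale of recovered fragments in voom, the log2 fold change was 2.16 for Gins2, 1.73 for Cdc6, 1.84 for Cdt1 and 1.46 for Mcm10, in place of 0.66, 0.56, 1.06 and 0.57. Voom called 25 of the replication genes higher, the same 21 and Gins3, Gins4, Prim2 and Pole, against 18.9% of 19076 genes.

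The count fell when the libraries were put on a common median. After median-of-ratios scaling, 12 of 45 replication genes were called higher and 0 lower, against 8.63% of all genes called higher. After quantile normalization, 10 of 45 were called higher and 0 lower, against 7.3% of all genes. The 12 were Cdt1, Mcm3, Mcm4, Mcm5, Mcm6, Gins2, Prim1, Rfc5, Lig1, Top2a, Rrm2 and Tyms, and quantile normalization kept 10 of them, without Mcm4 and Prim1. Voom with median-of-ratios scaling, chosen after seeing the data, called 18 replication genes higher, 17 of the 21 and Pole, against 11.5% of 19076 genes. By group, median-of-ratios scaling of FPKM left 1 licensing, 5 helicase, 4 fork and 2 nucleotide supply genes.

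**Figure D4:**
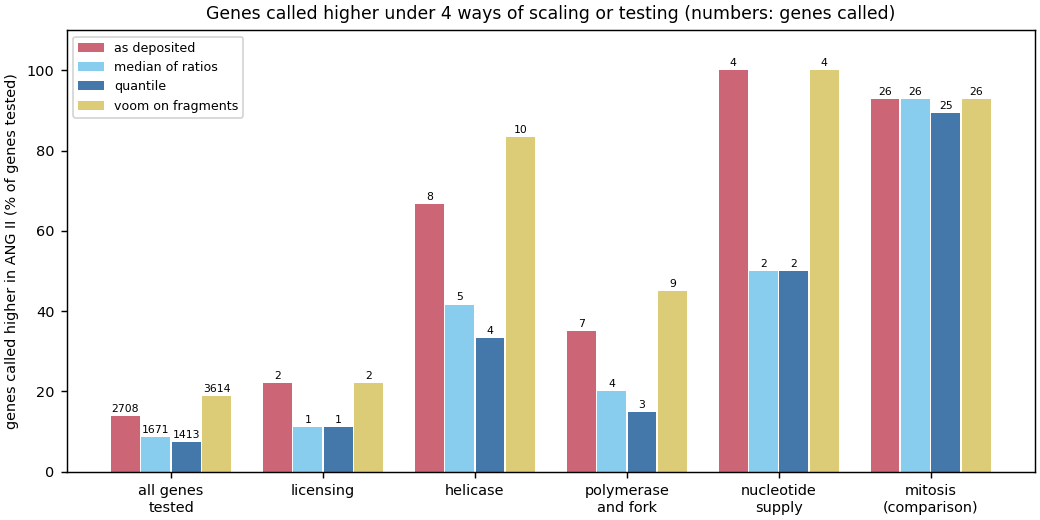
Share of tested genes called higher in ANG II (% of genes tested, counts above the bars) for all genes, the 4 replication groups and the mitosis list, on the deposited scale, after median-of-ratios or quantile scaling, and by voom on fragments. Helicase bars run from 4 to 10 genes and nucleotide supply bars from 2 to 4, while mitosis bars stay at 25 or 26 genes; lower calls, such as Cenpf after both scalings, are not drawn.

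Library ANG II 4 stood below the other ANG II libraries for these genes. It held the lowest ANG II value in 18 of the 21 called replication genes (85.7%), against 33.8% of all 2708 genes called higher. In the mitosis list it was lowest in 25 of 26 called genes (96.2%). The summed level of the 21 called replication genes was 84.3, 83.1, 74.4 and 69.5 FPKM in control and 181, 159, 168 and 122 FPKM in ANG II. Mitosis genes summed to 74.5, 59.6, 67.6 and 48.1 FPKM in control and to 197, 155, 169 and 94.7 FPKM in ANG II. Both sums were thus lowest in ANG II 4 among the ANG II libraries and lowest in control 4 among the controls. Without ANG II 4, 24 replication genes were called, the same 21 with Gins4, Prim2 and Pole.

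Markers of other cell types moved with the groups as well. All 12 macrophage markers were called higher, and their summed level was 322 to 413 FPKM in control and 765 to 1078 FPKM in ANG II. Cd14 lost its call after median-of-ratios (limma adjusted p = 0.077) and quantile scaling (limma adjusted p = 0.0959). It was at 52.2 FPKM in ANG II 4 and at 12.5 to 16.1 FPKM in the other ANG II libraries. Of 10 fibroblast markers, 9 were called higher, with sums of 1230 to 1711 FPKM in control and 4121 to 4622 FPKM in ANG II. The other marker, Gsn, had a mean of 819 FPKM in control against 587 FPKM with ANG II (log2 fold change -0.50, limma adjusted p = 0.028) and was called lower after median-of-ratios and quantile scaling. Fibroblast markers called higher numbered 8 after median-of-ratios scaling, without Pdgfra (0.45). After quantile normalization they numbered 7, without Pdgfra (0.45) and Tcf21 (0.44). Of 7 tested erythroid markers, 6 were called higher, with sums of 96.8 to 487 FPKM and 582 to 2091 FPKM. Endothelial markers gave 1 call in 10 and 0 after median-of-ratios or quantile scaling (Pecam1, 0.52 on the deposited scale and 0.29 after median-of-ratios scaling), with sums of 591 to 619 FPKM and 648 to 737 FPKM. Lymphocyte markers gave 2 calls in 10 and summed to 2.56 to 9.02 FPKM in control and 6.96 to 13.1 FPKM in ANG II. Of 4 tested atrial markers, 2 were called higher, with sums of 7.72 to 58.5 FPKM and 195 to 339 FPKM, and Bmp10, which was not tested, was at 0 to 0.0294 FPKM in all 8 libraries. The calls were Nppa, a natriuretic peptide gene that the ventricle also expresses in hypertrophy, at 8.61 FPKM in control and 141 FPKM with ANG II (log2 fold change 3.89), and Sln (1.69), whose call was lost after median-of-ratios scaling (1.54, limma adjusted p = 0.0508). Myl7 (log2 fold change 2.38) and Myl4 (2.23) missed the adjusted p (limma, 0.0557 for both), although their groups did not overlap and voom called both higher. Ventricular myocyte markers gave 2 calls lower (Myh6 and Tnni3) and 0 higher in 10, and 6 were called lower after median-of-ratios scaling. After quantile normalization 2 were called lower, Pln and Ckm, and Myh6 (-0.10) and Tnni3 (-0.37) were not. The part of these cell types in the replication result was not tested, and in bulk libraries a change in the number of cells of a type and a change in RNA per cell cannot be told apart.

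Promoter windows were found for 38 of the 46 replication genes. Some genes have several start sites in RefSeq, so 46 windows were searched for these 38, and a gene was counted if any of its windows held the word. E2F words were searched as TTTCCCGC, TTTGGCGC, TTTCGCGC and TTTGCCGC, on both strands and with overlaps allowed. At least 1 was present in 15 of the 38 genes (39.5%), against 4.31% of the 12089 tested genes with a window and 2.6% of all 27025 genes with a window. Counted by window, an E2F word was in 15 of 46 (32.6%), against 3.55% of the 15418 windows of tested genes. By group, 4 of 8 licensing, 5 of 8 helicase, 6 of 18 fork and 0 of 4 nucleotide supply genes held such a word. Among called replication genes the share was 9 of 18, and among those tested and not called 6 of 19, Fen1 being untested. The CCAAT box, searched as CCAAT on both strands, was in 24 of 38 (63.2%) against 41.9% of tested genes, and in all 8 helicase genes with a window. Its split ran the other way, with 10 of 18 called genes and 14 of 19 not called. The CHR word TTTGAA, on both strands, was in 6 of 38 (15.8%) against 15% of tested genes, in 2 of 18 called and 3 of 19 not called. In the mitosis list the counts were 1 of 24 genes for an E2F word, 19 for a CCAAT box and 18 for a CHR word. A word in a window is a description of its letters and does not show binding, and these shares were not tested.

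**Figure D5:**
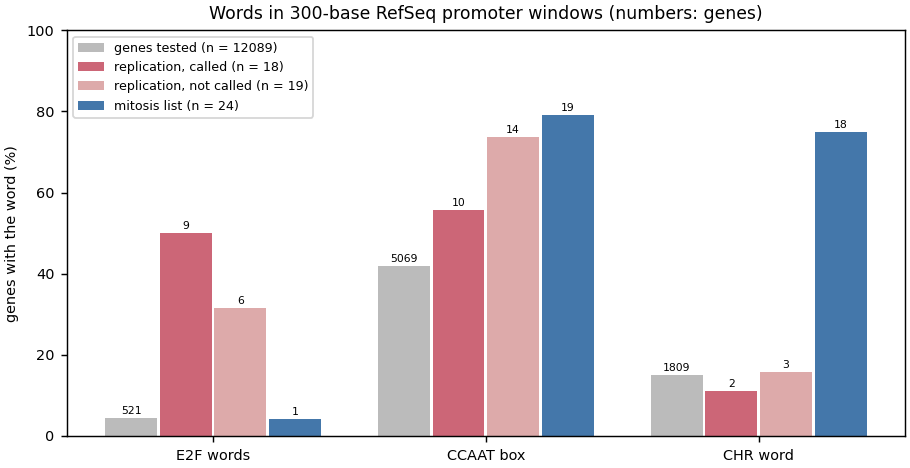
Share of genes (%, counts above the bars) with at least 1 RefSeq promoter window of 300 bases that holds an E2F word, a CCAAT box or a CHR word, for all tested genes, called and not called replication genes and the mitosis list. E2F words are in 9 of 18 called and 6 of 19 uncalled replication genes and CCAAT boxes in 10 of 18 and 14 of 19, while CHR words are in 18 of 24 mitosis genes.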

How the data were processed

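Left ventricles of 4 control and 4 ANG II mice were grouped by their treatment labels. The study's methods state more replicates per group than these, and its further RNA-seq deposit was not analysed here. The authors deposited 1 table of FPKM values, 1 column per library without pooling, and every per-sample column was mapped (0 were not). The submitters' processing notes name Bowtie2, HISAT and RSEM without versions or roles, and the genome build, annotation and use of strand are not given in the sources used here. The labels' extraction text names CRC cells, which goes against the tissue label, while myocyte genes were abundant in all 8 libraries. The study's methods state paired-end reads of 150 bases on mRNA enriched with oligo(dT).

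Of 55679 genes, 27083 were at 0 in all libraries. The 19364 genes whose mean reached 0.1 FPKM entered a limma 3.58.1 fit in R 4.3.3 (lmFit and trended eBayes) of log2(FPKM + 1) over all 8 libraries, with no covariate or block. P-values were two-sided and Benjamini-Hochberg adjusted over all genes tested. The study names limma and both thresholds, and the base of the logarithm, the pseudocount and the filter were choices made here. Fold changes on this scale understate low genes. The script was tested on simulated data.

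Fragments were recovered from the steps of the FPKM values with mean transcript lengths of GENCODE M21 (GRCm38), in which 55141 gene IDs were found. Below 60 fragments, 99.2 to 99.3% of values of genes with 1 exon and 97.6 to 98.1% of those with several exons were within 0.05 of a whole number. Counts of 3 or fewer fragments were treated as the floor. Fragment numbers speak to counting error only, while the SE and p-values come from the spread between libraries. No libraries were alike within sampling noise (chi-square per gene of at least 6.89). The replicate numbers were checked as pairs and did not pair the libraries (correlations of -0.0163, 0.062, -0.032 and -0.00929).

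The members, the gene lists and the tests were chosen with earlier results of these data known. All 46 members may be named; values in every library are given, in each of the licensing, helicase and fork groups, for the 5 called genes with the largest and the 2 tested genes with the smallest absolute log2 fold change, and for all nucleotide supply genes. The other lists are named by up to 3 called genes with the largest change; other genes and values were chosen after their values were seen. Promoters came from RefSeq (GRCm38.p6), 1 for the called gene with the largest change in each group. Alternatives changed the pseudocount, filter, scaling, variance trend, block, thresholds, libraries and scale of the test. Tables and figures were made in Python 3.11.15 with pandas 2.3.3, numpy 2.4.6, matplotlib 3.10.9 and scipy 1.17.1.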

Additional observations from a re-analysis of the deposited data

Results flagged for a closer look

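Among 92 groups of 4 libraries (46 genes in 2 groups), 5 held a library farther from the others than Dixon's critical value for 4 allows, where chance gives about 1 in 20. Orc4 was highest in control 1 at 31.1 FPKM, and Mcm5 was highest among the controls in control 2 at 2.67 FPKM. Mcm3 and Rrm1 were lowest among the controls in control 4, at 3.69 and 8.38 FPKM. Mcm2 was lowest among the ANG II libraries in ANG II 4, at 6.62 FPKM.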

How the results depend on the processing

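No alternative called a replication gene lower. By the adjusted p alone, some passed as lower. After median-of-ratios scaling these were Pold2 (-0.35, limma adjusted p = 0.0132), Orc4 (-0.23, limma adjusted p = 0.0171) and Orc3 (-0.17, limma adjusted p = 0.0441). Quantile normalization gave Pold2 (-0.36, limma adjusted p = 0.0113) and Orc4 (-0.21, limma adjusted p = 0.0241). Leaving out each library in turn gave 18 to 24 replication genes called higher and 0 to 0 lower, with 2 to 3 licensing, 7 to 10 helicase, 4 to 9 fork and 4 to 4 nucleotide supply genes, and 21 to 24 higher and 0 to 0 lower among the other pathway genes (fork, nucleotide and E2F lists together). The low value for the fork genes, 4, came without ANG II 1. Over all genes tested, leaving out 1 library gave 2505 to 2838 called higher, against 2708 with every library. With the replicate number as a block, 21 replication genes were called, the same 21, and no other call among them changed. Of all genes tested, 14% were called higher on the deposited scale, 8.63% after median-of-ratios scaling and 7.3% after quantile normalization. The share above a log2 fold change of 1 was not taken. The replication genes called higher numbered 21 on the deposited scale, 12 after median-of-ratios scaling, 10 after quantile normalization and 6 with an absolute log2 fold change above 1. Licensing genes called went from 2 to 1 under those 3 settings and with a mean of at least 1 FPKM, where Cdc6 is no longer tested. Helicase genes went from 8 to 5, 4 and 1, fork genes from 7 to 4, 3 and 2, and nucleotide supply genes from 4 to 2, 2 and 2. Fork genes numbered 4 without mitochondrially encoded and the 10 most abundant genes, and 11 by the adjusted p alone. Over all genes tested, 1976 were called higher in the first of these settings. Other pathway genes called higher went from 22 to 11 after quantile normalization, 4 above a log2 fold change of 1 and 40 by the adjusted p alone, and from 0 to 2 called lower (Poln and Dut) after quantile normalization. Voom with median-of-ratios scaling, chosen after seeing the data, called 18 replication genes higher and 2 other pathway genes lower (Poln and Dut). Genes not called changed sign where the scaling lowered the median of all genes. After median-of-ratios scaling the log2 fold changes were Orc2 -0.01, Orc3 -0.17, Pola2 -0.07, Pold1 -0.02, Rfc1 -0.06, Rfc4 -0.10, Rpa1 -0.14, Rpa2 -0.05 and Rpa3 -0.17. After quantile normalization they were Orc2 -0.06, Orc3 -0.15, Orc5 -0.12, Pola2 -0.13, Pold1 -0.12, Rfc1 -0.08, Rfc4 -0.23, Rpa1 -0.15, Rpa2 -0.08 and Rpa3 -0.23. Without mitochondrially encoded and the 10 most abundant genes they were Orc3 -0.09, Rfc4 -0.03, Rpa1 -0.07 and Rpa3 -0.10. In voom with median-of-ratios scaling they were Orc2 -0.02, Orc3 -0.17, Pola2 -0.08, Pold1 -0.03, Rfc1 -0.06, Rfc4 -0.13, Rpa1 -0.15, Rpa2 -0.06 and Rpa3 -0.18. With 1 library left out, Orc4 ran from -0.03 to 0.03 (above 0 without control 1, 0.03, ANG II 2, 0.01, or ANG II 4, 0.02), Gmnn from -0.10 to 0.01 (0.01 without control 3 or control 4) and Rpa3 from -0.05 to 0.12 (below 0 without control 3, -0.03, or ANG II 2, -0.05). Beyond the scalings, the cause of these changes was not tested. Depth limits the lowest genes most, with Orc1, Cdc6, Cdt1, Mcm10, Gins2, Pole2 and Fen1 at under 10 fragments in at least 1 library.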
